A study of Mus musculus with 6 samples.

Results

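The genes described here are those of Wnt signalling that a list of symbols selects: all Wnt ligands, all Frizzled receptors, and named co-receptors, effectors and target genes. The list holds 45 mouse genes, of which 43 were measured among 12393 genes on the array; Fzd10 and Rspo3 had no named probe set and are not analysed here. The rule reads gene symbols and no expression value. They comprise 19 ligands, 9 Frizzled receptors, 5 other receptors, 4 nuclear effectors, 4 target or feedback genes, and Axin1 and Porcn.

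RNA came from C57BL/6 mouse gut of embryonic day 13.5. Stomach or intestine was dissociated with proteases to deplete the endoderm, and the cells were grown for 3 days in medium with 20% serum before hybridisation to Affymetrix arrays. There were 3 groups of 2 arrays, labelled as biological replicates; whether embryos were pooled is not given in the sources used here. The control stomach and control intestine cells carried Rosa26+/Barx1 or Bapx1+/Cre, and the labels do not say which allele each sample had. The third group, called Barx1 intestine here, was intestine of Rosa26+/Barx1;Bapx1+/Cre embryos, in which Cre from the Bapx1 locus turns on BARX1, a homeodomain factor of the embryonic stomach mesenchyme. What share of the cultured cells had switched the allele on is not given in the sources used here.

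Wnt ligands are lipid-modified secreted proteins. They bind Frizzled receptors together with LRP5 or LRP6, which stops the AXIN-containing destruction complex from degrading beta-catenin, so that beta-catenin enters the nucleus and works with TCF/LEF proteins. Other branches run through ROR and RYK receptors without beta-catenin and govern cell polarity and tissue elongation. In the early stomach, BARX1 is known for inducing secreted Wnt antagonists in the mesenchyme, and mesenchymal Wnt5a is known for its part in lengthening the gut.

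Values are log2 expression levels, so a difference of 1 is a doubling. Barx1 itself read 9.82 and 9.79 in stomach, 5.13 and 4.93 in intestine, and 8.66 and 8.79 on the Barx1 intestine arrays, in the order of the labels. The array medians were 6.93 to 6.98, and values under an array's lower quartile, 4.72 to 4.76, were taken as no evidence of expression. All 12 defining genes of gut mesenchyme and smooth muscle lay above that quartile on all 6 arrays, but so did 15 of 23 epithelial and 17 of 17 macrophage and leukocyte genes, so genes of other cell types were measured too. In such bulk RNA, fewer cells of a type and less RNA per cell cannot be told apart.

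Of the 43 Wnt genes, 32 lay above the lower quartile on all 6 arrays, 4 on some and 7 on none. A gene passed the test at a Benjamini-Hochberg adjusted p under 0.05, taken over all genes in a limma fit of the 3 group means. Between stomach and intestine 4 Wnt genes were higher in stomach (Fzd2, Fzd4, Ror2 and Tcf7l1) and 2 lower (Wnt5a and Porcn), which is 14.0% of them, against 16.9% of all genes (8.86% higher and 8.09% lower). With BARX1 in the intestine 1 passed, Ccnd1, which is 2.33% of the 43 against 3.98% of all genes (1.86% higher and 2.12% lower). Between Barx1 intestine and stomach 2 passed, Fzd6 and Ror2, both lower in Barx1 intestine, which is 4.65% against 5.20% of all genes (2.56% higher and 2.64% lower). In all 3 comparisons the share was near that of all genes, so the counts are no result about the Wnt genes as a set. Between stomach and intestine most of the 6 calls were lost without stomach replicate 1, all without stomach replicate 2 and some without intestine replicate 1. Fzd2 was also lost without intestine replicate 2, and Porcn without either Barx1 intestine array. Such a loss is no evidence of no difference. For Barx1 intestine against intestine the 1 call was lost without any single array other than intestine replicate 1, without which there were 2. Against stomach the 2 calls were lost without either stomach or either Barx1 intestine array, and there were 4 without either intestine array.

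**Figure D1:**
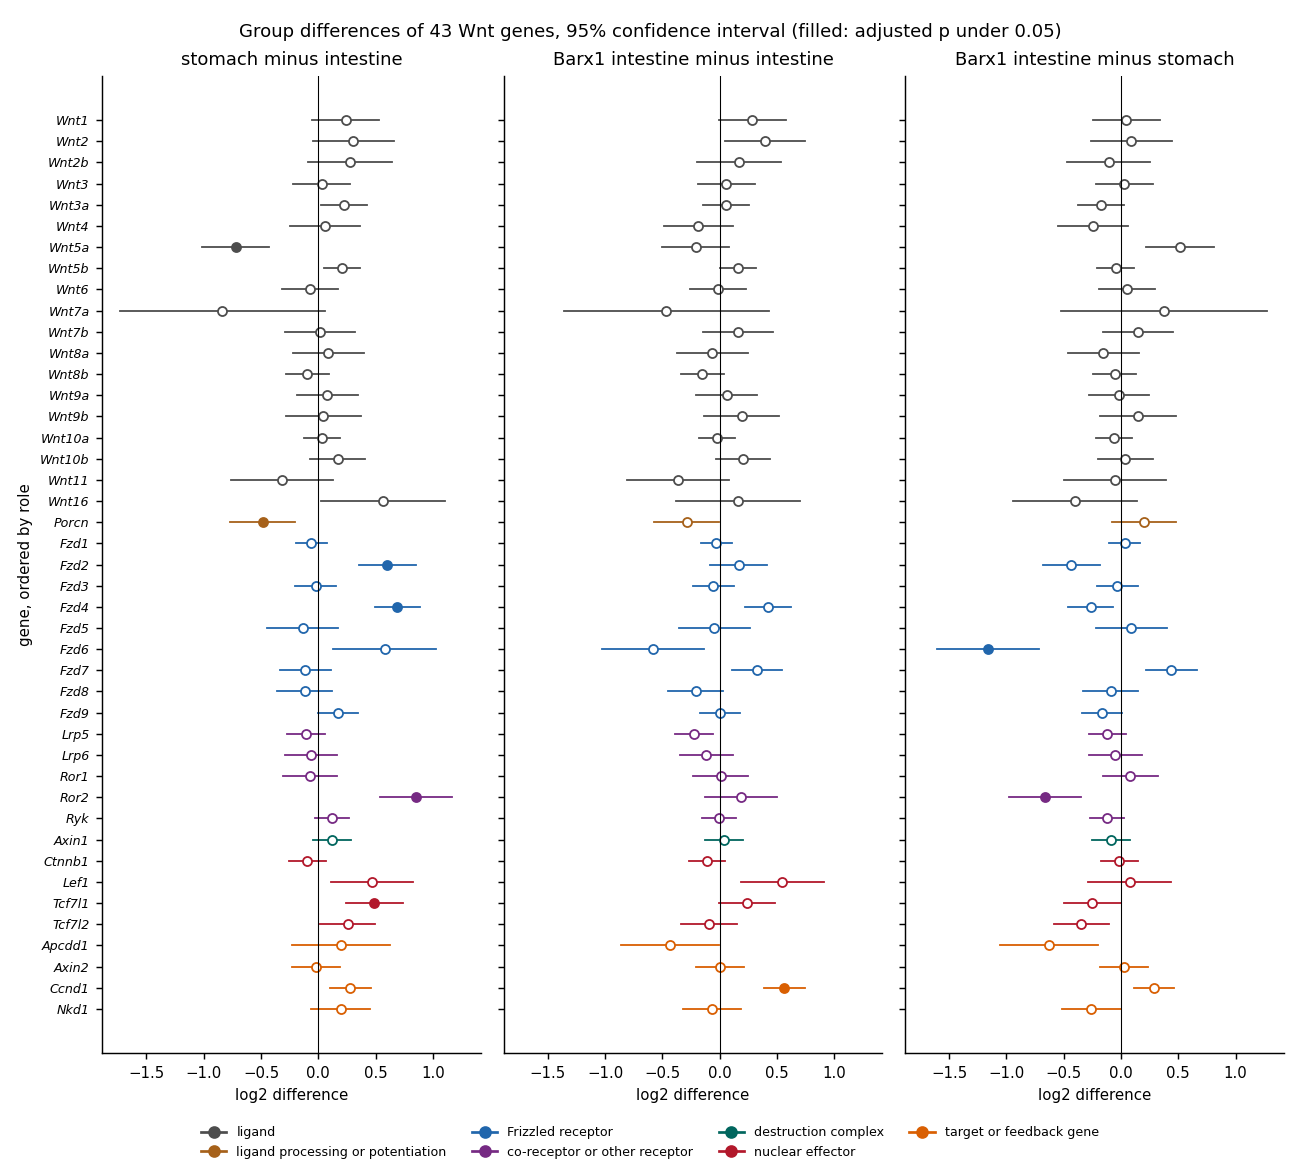
Log2 difference of each of the 43 Wnt genes in the 3 comparisons (horizontal axis, log2 units), ordered by role on the vertical axis. Points are differences of group means of 2 arrays each, lines are 95% confidence intervals of the limma fit, and filled points passed the test. The genes not above the lower quartile on all arrays are included, most intervals cross 0, and the filled points are Wnt5a, Porcn, Fzd2, Fzd4, Ror2 and Tcf7l1 on the left, Ccnd1 in the middle, and Fzd6 and Ror2 on the right.

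The median difference of the 43 genes was 0.079 for stomach minus intestine, 0.0013 for Barx1 intestine minus intestine and -0.050 for Barx1 intestine minus stomach, beside 0.019, 0.022 and -0.00080 over all genes. No Wnt gene differed by 1 or more between stomach and intestine or between Barx1 intestine and intestine, and 1, Fzd6, did between Barx1 intestine and stomach. Groups without any overlap of their arrays were seen for 25 of the 43 genes between stomach and intestine, 17 higher and 8 lower (58.1% of them, against 64.1% of all genes, 34.5% higher and 29.6% lower). Between Barx1 intestine and intestine there were 20, 10 in each direction (46.5%, against 52.4% of all genes, 30.1% higher and 22.4% lower). Between Barx1 intestine and stomach there were 24, 7 higher and 17 lower (55.8%, against 58.0% of all genes, 29.5% higher and 28.5% lower). With 2 arrays against 2, a two-sided exact permutation test cannot give a p below 0.333, so the test of single genes rests on the spread that limma pools over genes.

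Marker lists of cell types and of proliferation moved in the same comparisons as the Wnt genes. Between stomach and intestine, where Fzd2, Fzd4, Ror2 and Tcf7l1 were higher and Wnt5a and Porcn lower, 12 of 15 proliferation genes were higher and 0 lower, and of the 12 mesenchymal genes 5 were higher (Col1a1, Col1a2, Col3a1, Pdgfra and Cnn1) and 1 lower (Foxf2). In that comparison 5 of 23 epithelial genes were lower, as were Sox10, Erbb3 and Ednrb among 14 genes of neurons and glia (1 was higher) and 3 of 12 endothelial genes (1 was higher), while 2 of 6 mesothelial genes were higher and 1 lower. No macrophage gene passed there (0 of 17 in the limma fit, 8 at an unadjusted p under 0.05, against 33.7% of all genes). All 17 were nevertheless lower in stomach, with differences of -1.65 to -0.73 (median -1.01). For 16 of them the arrays did not overlap, against 29.6% of all genes in that direction. Of all genes, 8.86% passed as higher and 8.09% as lower in this comparison. Between Barx1 intestine and stomach, where Fzd6 and Ror2 were lower, Col1a1, Col1a2, Col3a1 and Pdgfra were lower too and Foxf2 higher, 6 of 15 proliferation genes and 2 of 14 genes of neurons and glia were lower, and 1 epithelial and 2 endothelial genes were higher. Of all genes, 2.56% passed as higher and 2.64% as lower there. Among macrophage genes 0 of 17 passed in the limma fit (5 at an unadjusted p under 0.05, against 24.2% of all genes). Their differences between Barx1 intestine and stomach were -1.37 to 0.66 (median -0.89). For 14 of the 17 the arrays did not overlap, all lower in Barx1 intestine, against 28.5% of all genes in that direction. The mesenchymal list as a whole had mean levels of 11.79 and 11.88 in stomach, 11.53 on both intestine arrays, and 11.30 and 11.48 in Barx1 intestine, and the list of neurons and glia 7.01 and 6.88, 7.29 and 7.36, and 6.52 and 6.70. The endothelial list ranged from 5.28 to 5.56 over the arrays, with Pecam1, Cdh5, Tek and Tie1 below the lower quartile on all of them. The part of these lists in the Wnt results was not tested.

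Of the 8 Wnt genes past the test in at least 1 comparison, Wnt5a, Porcn, Fzd2, Fzd6 and Ccnd1 had no region before their start in the sequences used. The regions of the other 3, Fzd4, Ror2 and Tcf7l1, all higher in stomach than in intestine, are shown. They are 250 bases each, from RefSeq (GRCm38.p6), at chr7:89404116-89404365 on the plus strand for Fzd4, chr13:53286125-53286374 on the minus strand for Ror2 and chr6:72789046-72789295 on the minus strand for Tcf7l1. Capitals mark the GC box GGGCGG on either strand. Fzd7, at chr1:59481897-59482146 on the plus strand, is shown beside them as the Frizzled gene whose region holds a TCF/LEF core, and there the capitals mark that core alone.
Fzd4: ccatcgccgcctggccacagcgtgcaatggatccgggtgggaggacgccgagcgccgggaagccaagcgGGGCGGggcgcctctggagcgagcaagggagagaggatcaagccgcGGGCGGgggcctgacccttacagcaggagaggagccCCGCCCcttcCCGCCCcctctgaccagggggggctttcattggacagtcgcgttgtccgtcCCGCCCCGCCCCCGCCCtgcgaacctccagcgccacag
Ror2: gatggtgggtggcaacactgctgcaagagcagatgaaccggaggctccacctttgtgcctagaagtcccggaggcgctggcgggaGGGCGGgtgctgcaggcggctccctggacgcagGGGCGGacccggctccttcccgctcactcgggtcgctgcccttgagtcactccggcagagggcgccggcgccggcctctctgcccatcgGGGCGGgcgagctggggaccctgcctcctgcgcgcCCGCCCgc
Tcf7l1: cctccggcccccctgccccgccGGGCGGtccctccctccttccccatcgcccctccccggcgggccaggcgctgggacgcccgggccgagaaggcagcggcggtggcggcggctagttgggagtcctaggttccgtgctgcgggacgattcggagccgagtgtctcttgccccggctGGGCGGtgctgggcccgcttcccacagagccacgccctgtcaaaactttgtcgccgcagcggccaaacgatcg
Fzd7: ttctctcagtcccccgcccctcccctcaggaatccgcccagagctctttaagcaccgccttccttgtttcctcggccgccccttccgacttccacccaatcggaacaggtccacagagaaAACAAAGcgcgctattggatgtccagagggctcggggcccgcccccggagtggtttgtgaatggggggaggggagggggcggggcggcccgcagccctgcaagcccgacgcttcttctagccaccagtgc
All are rich in G and C: 72.8% for Fzd4, 73.2% for Ror2, 73.6% for Tcf7l1 and 65.2% for Fzd7. The median was 69.2% over the Wnt gene regions and 52.4% over 32851 regions of the same length. The GC box matched 7, 4 and 2 times in Fzd4, Ror2 and Tcf7l1, and 6 times in Fzd7. Over the 37 regions that 29 of the Wnt genes have in the table, 75.7% hold a GC box, against 32.7% of all regions. The TCF/LEF core was searched as CTTTG followed by 2 bases that are each A or T, on both strands, and the homeodomain core as TAATTG, also on both strands. The first was in 13.5% of the Wnt gene regions (those of Fzd7, Lef1, Tcf7l2, Wnt11 and Wnt5b) against 14.8% of all, and the second in 0 of 37 against 7.17% of all. Fzd4, Ror2 and Tcf7l1 had neither, which says only that these letters are not in these windows. The GC box was added after the sequences were seen, and a match is a description, not a site.

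Wnt5a, the ligand of the branch that runs without beta-catenin, was the 1 ligand of 19 to pass in any comparison of the fit to all 6 arrays. It read 10.83 and 10.87 in stomach, 11.70 and 11.44 in intestine, and 11.48 and 11.24 on the Barx1 intestine arrays. Both stomach arrays lay below the other 4, while the intestine and Barx1 intestine arrays overlapped. The highest value was on intestine replicate 1, and replicate 1 stood above replicate 2 in both intestine groups. The mean of the epithelial list, given below, did the same, though not every gene of that list. The part of epithelial cells in the Wnt5a result was not tested. Stomach was lower than intestine by a difference of -0.72 (SE 0.12, n = 2 each, adjusted p = 0.0163), a 1.65-fold difference. Barx1 intestine differed from intestine by -0.21 (95% confidence interval -0.50 to 0.085, adjusted p = 0.350) and from stomach by 0.51 (0.22 to 0.81, adjusted p = 0.0708). A second probe set of Wnt5a gave -0.74 between stomach and intestine and passed as well (adjusted p = 0.0174, over all probe sets). The call between stomach and intestine ended without stomach replicate 1 (adjusted p = 0.0998) and without stomach replicate 2 (adjusted p = 0.0969).

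None of the other 18 ligands passed in any comparison of this limma fit. At an unadjusted p under 0.05, 4, 1 and 1 of all 19 ligands did in the 3 comparisons, which is 21.1%, 5.26% and 5.26%, against 33.7%, 23.6% and 24.2% of all genes. Wnt1, Wnt3, Wnt8a, Wnt8b and Wnt9a lay below the lower quartile on all 6 arrays, and Wnt2, Wnt2b, Wnt9b and Wnt16 above it on some. For these 9, no level above background was shown in every group, and their differences carry that limit. Of the ligands above it on all arrays, Wnt7a spread most. It read 5.46 and 5.58 in stomach, 6.80 and 5.91 in intestine, and 6.28 and 5.50 on the Barx1 intestine arrays, so that replicate 1 stood above replicate 2 in both intestine groups by more than the means of those groups differed. Its difference between stomach and intestine, -0.84 (95% confidence interval -1.73 to 0.061), did not pass (adjusted p = 0.172). Wnt11 likewise read highest on intestine replicate 1, at 7.05, with 6.32 to 6.55 on the other 5 arrays. The epithelial list was also highest on that array: its mean level was 6.18 and 6.63 in stomach, 7.74 and 7.09 in intestine, and 7.10 and 6.56 on the Barx1 intestine arrays, with 15 of 23 genes above the lower quartile on all arrays and Foxa3, Shh, Ihh and Cdx1 on none. Members of the list differed: Foxa1 and Spint1 also read highest on intestine replicate 1 (8.21 and 7.34), while Fabp1 and Fabp2 read highest on intestine replicate 2 (9.84 and 9.76). The part of epithelial cells in the ligand values was not tested.

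**Figure D2:**
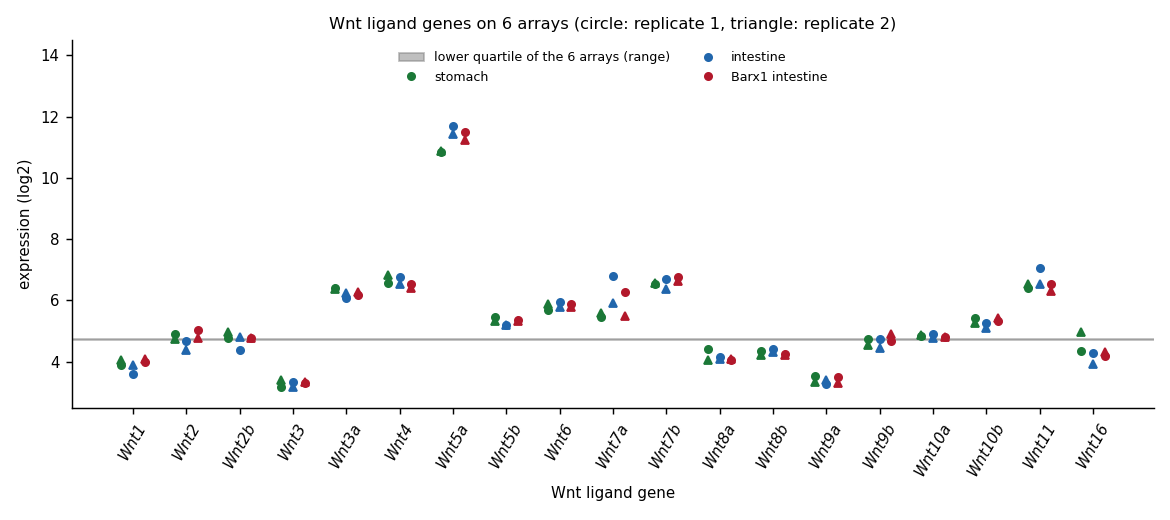
Log2 expression (vertical axis) of the 19 Wnt ligand genes on the 6 arrays, coloured by group, with circles for replicate 1 and triangles for replicate 2. The grey line spans the lower quartiles of the arrays, 4.72 to 4.76, and Wnt1, Wnt3, Wnt8a, Wnt8b and Wnt9a lie below it throughout; levels of different genes are not comparable because each has its own probes.

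Wnt4, Wnt6, Wnt7b, Wnt3a, Wnt5b, Wnt10a and Wnt10b, all above the lower quartile on all arrays, differed between stomach and intestine by -0.070 (Wnt6) to 0.22 (Wnt3a) and did not pass. Wnt2b read 4.78 and 4.96 in stomach, 4.39 and 4.80 in intestine, and 4.77 and 4.76 on the Barx1 intestine arrays. Its stomach and intestine arrays overlapped, and the difference of 0.28 (95% confidence interval -0.087 to 0.64) did not pass (adjusted p = 0.246). Without intestine replicate 2 the Wnt2b difference was 0.49 and passed (adjusted p = 0.0478), with the 1 remaining intestine array below its lower quartile. Wnt2, a ligand close to Wnt2b in sequence, read 4.92 and 4.74, 4.67 and 4.37, and 5.05 and 4.79 in the same order, with no call (adjusted p = 0.174 to 0.741 over the comparisons).

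Porcn encodes the acyltransferase that attaches the lipid to Wnt ligands. Its levels were 6.14 and 6.27 in stomach, 6.84 and 6.55 in intestine, and 6.37 and 6.44 on the Barx1 intestine arrays, so the 3 groups did not overlap and Barx1 intestine lay between the other two. Stomach was below intestine by a difference of -0.49 (SE 0.11, adjusted p = 0.0396), while the differences of Barx1 intestine from intestine (-0.29, adjusted p = 0.201) and from stomach (0.20, adjusted p = 0.344) did not pass. This was the least stable call in the comparison of stomach with intestine. It held without intestine replicate 2 and ended without any other single array: stomach replicate 1 (adjusted p = 0.187), stomach replicate 2 (adjusted p = 0.129), intestine replicate 1 (adjusted p = 0.0866) or either Barx1 intestine array (adjusted p = 0.0709). Porcn was highest on intestine replicate 1, as the mean of the epithelial list was, though not every gene of that list. The part of epithelial cells in the Porcn result was not tested.

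All 9 measured Frizzled genes lay above the lower quartile on all 6 arrays. Fzd2 and Fzd4 were higher in stomach than in intestine, and Fzd6 was lower in Barx1 intestine than in stomach. Fzd2 read 9.79 and 10.03 in stomach, 9.38 and 9.24 in intestine, and 9.47 and 9.48 on the Barx1 intestine arrays. No groups overlapped, and both Barx1 intestine arrays lay just above the intestine pair. Stomach exceeded intestine by 0.60 (SE 0.10, adjusted p = 0.0170), and the other 2 probe sets of Fzd2 gave 0.71 and 0.94, each past the test (adjusted p = 0.00849 and 0.0106 over all probe sets). Barx1 intestine differed from intestine by 0.17 (95% confidence interval -0.082 to 0.41, adjusted p = 0.377) and from stomach by -0.43 (-0.68 to -0.18, adjusted p = 0.0709). The other 2 probe sets gave larger differences from intestine, 0.25 and 0.52, without a call (adjusted p = 0.190 and 0.0936 over all probe sets). From stomach they gave -0.46 and -0.42, also without a call (adjusted p = 0.0513 and 0.134). The Fzd2 call ended without stomach replicate 2 and the adjusted p was then 0.0897; leaving out intestine replicate 2 gave 0.0592.

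Fzd4, a receptor for Wnt ligands and for norrin, read 6.84 and 6.75 in stomach, 6.16 and 6.05 in intestine, and 6.46 and 6.60 on the Barx1 intestine arrays. The groups did not overlap, with Barx1 intestine in between. Stomach exceeded intestine by 0.69 (SE 0.08, adjusted p = 0.00689). Barx1 intestine exceeded intestine by 0.42 (95% confidence interval 0.22 to 0.62), which missed the threshold (adjusted p = 0.0512) and passed with a filter on dim genes (adjusted p = 0.0422), with arrays centred on their medians (adjusted p = 0.0401), after a second quantile normalisation (adjusted p = 0.0412) and with a variance trend (adjusted p = 0.0486). From stomach it differed by -0.27 (-0.46 to -0.068, adjusted p = 0.117). The other probe set of Fzd4 read 3.55 to 3.75, below the lower quartile on all arrays, and showed no call. The call between stomach and intestine ended without stomach replicate 1 (adjusted p = 0.0575) and without stomach replicate 2 (adjusted p = 0.0508).

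Fzd6, a receptor known for planar polarity, had the largest difference of any Wnt gene between Barx1 intestine and stomach. It read 9.04 and 9.40 in stomach, 8.86 and 8.43 in intestine, and 8.00 and 8.12 on the Barx1 intestine arrays. The order was stomach, intestine, Barx1 intestine with no overlap, so Barx1 intestine did not lie between the controls here. Barx1 intestine was below stomach by a difference of -1.16 (SE 0.18, adjusted p = 0.0324), a 2.24-fold difference. Its difference from intestine, -0.58 (95% confidence interval -1.03 to -0.14), did not pass (adjusted p = 0.131), nor did that of stomach from intestine, 0.58 (0.13 to 1.02, adjusted p = 0.0836). The second probe set gave -0.67 between Barx1 intestine and stomach without a call (adjusted p = 0.136), and with the mean of both the difference was -0.92 (adjusted p = 0.0544). The call ended without stomach replicate 1 (adjusted p = 0.103), stomach replicate 2 (adjusted p = 0.179), Barx1 intestine replicate 1 (adjusted p = 0.146) or Barx1 intestine replicate 2 (adjusted p = 0.106).

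**Figure D3:**
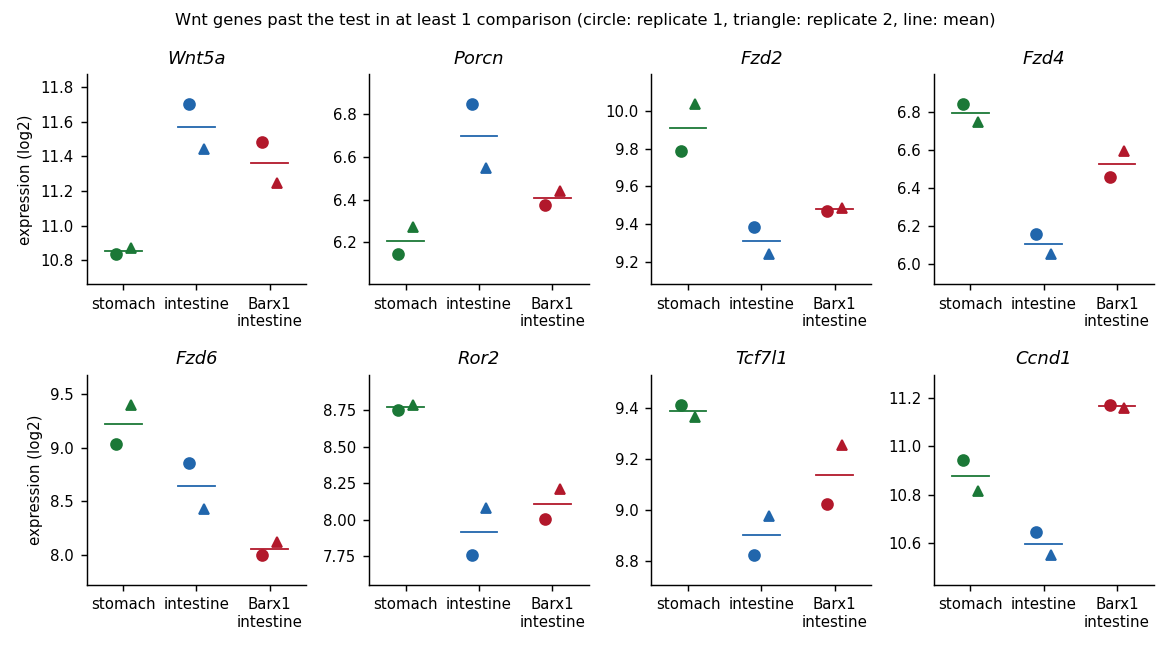
Log2 expression (vertical axes, each with its own range that does not start at 0) of the 8 Wnt genes that passed in at least 1 comparison, by group, with circles for replicate 1, triangles for replicate 2 and a line at the group mean. Ccnd1 is highest in Barx1 intestine, Fzd6 is lowest there, and the Ror2 stomach arrays at 8.75 and 8.79 stand above the other 4.

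Fzd7 read 11.41 and 11.43 in stomach, 11.62 and 11.45 in intestine, and 11.78 and 11.94 on the Barx1 intestine arrays, so the Barx1 intestine arrays were the highest. Its differences from stomach (0.44, 95% confidence interval 0.22 to 0.66, adjusted p = 0.0534) and from intestine (0.33, 0.11 to 0.55, adjusted p = 0.105) did not pass. The first passed without dim genes (adjusted p = 0.0430), with arrays centred on their medians (adjusted p = 0.0441), with a variance trend (adjusted p = 0.0179) and without either intestine array (adjusted p = 0.0498), and the second with a variance trend (adjusted p = 0.0461). Its other probe set differed by 0.0061 from stomach and 0.15 from intestine, without a call. The remaining Frizzled genes, Fzd1, Fzd3, Fzd5, Fzd8 and Fzd9, differed by at most 0.21 in size in any comparison (Fzd8 in Barx1 intestine minus intestine, -0.21), and none passed.

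Among the other receptors, Ror2, a receptor tyrosine kinase that binds WNT5A, was the 1 gene to pass in 2 comparisons, which share the stomach arrays. It read 8.75 and 8.79 in stomach, 7.76 and 8.08 in intestine, and 8.00 and 8.21 on the Barx1 intestine arrays. The stomach arrays stood above the other 4, and the intestine and Barx1 intestine arrays overlapped. Stomach exceeded intestine by 0.85 (SE 0.13, adjusted p = 0.0126), a 1.80-fold difference, and Barx1 intestine was below stomach by a difference of -0.66 (SE 0.13, adjusted p = 0.0476). Barx1 intestine differed from intestine by 0.19 (95% confidence interval -0.13 to 0.50, adjusted p = 0.431). The first call ended without stomach replicate 1 (adjusted p = 0.0774) and without stomach replicate 2 (adjusted p = 0.0916). The second ended without stomach replicate 1 (adjusted p = 0.207), stomach replicate 2 (adjusted p = 0.240), Barx1 intestine replicate 1 (adjusted p = 0.174) or Barx1 intestine replicate 2 (adjusted p = 0.104).

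The Wnt5a ligand and its receptor Ror2 thus stood in opposite order: in stomach Wnt5a was lowest and Ror2 highest. Lrp5 and Lrp6, the co-receptors of the beta-catenin branch, differed by -0.23 (Lrp5, Barx1 intestine minus intestine, 95% confidence interval -0.39 to -0.061, adjusted p = 0.119) to -0.050 over the 3 comparisons, and neither passed. Ryk, a catalytically inactive kinase that binds Wnt ligands, ranged from 11.03 to 11.22 over the 6 arrays. Ror1 lay below the lower quartile throughout, at 3.90 to 4.15.

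Of the nuclear effectors, Tcf7l1, a TCF protein that mainly represses, was higher in stomach than in intestine. It read 9.41 and 9.37 in stomach, 8.82 and 8.98 in intestine, and 9.02 and 9.25 on the Barx1 intestine arrays, with Barx1 intestine between the controls and no overlap. The difference of stomach from intestine was 0.49 (SE 0.10, adjusted p = 0.0283), and the second probe set gave 0.34 (adjusted p = 0.0332 over all probe sets). Barx1 intestine differed from intestine by 0.24 (95% confidence interval -0.0090 to 0.49, adjusted p = 0.224) and from stomach by -0.25 (-0.50 to -0.0029, adjusted p = 0.203). The call ended without stomach replicate 1 (adjusted p = 0.144), stomach replicate 2 (adjusted p = 0.129) or intestine replicate 1 (adjusted p = 0.0981).

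The beta-catenin gene, Ctnnb1, read 13.32 and 13.40 in stomach, 13.49 and 13.41 in intestine, and 13.33 and 13.36 on the Barx1 intestine arrays. These values bound its differences from intestine to -0.25 to 0.063 for stomach and -0.27 to 0.049 for Barx1 intestine (95% confidence intervals). They say nothing of the protein, whose stability the pathway controls. Tcf7l2 read 7.97 and 8.01, 7.63 and 7.84, and 7.56 and 7.72 in stomach, intestine and Barx1 intestine, without a call, although 1 of its 4 probe sets passed as lower in Barx1 intestine than in stomach (-0.44, adjusted p = 0.0405 over all probe sets). Lef1 lay below the lower quartile on all arrays, at 2.97 to 3.82, so no level above background was shown. Axin1, the scaffold of the destruction complex, ranged from 8.04 to 8.24.

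Of the 4 target or feedback genes, Ccnd1, the cyclin of early G1 phase, was higher with BARX1. It read 10.94 and 10.81 in stomach, 10.65 and 10.55 in intestine, and 11.17 and 11.16 on the Barx1 intestine arrays. The groups did not overlap, and Barx1 intestine was the highest. Barx1 intestine exceeded intestine by 0.57 (SE 0.07, adjusted p = 0.0230), a 1.48-fold difference, and the other 2 probe sets of Ccnd1 gave 0.62 and 0.65, each past the test (adjusted p = 0.0246 and 0.0308 over all probe sets). Against stomach the difference was 0.29 (95% confidence interval 0.11 to 0.46, adjusted p = 0.0820). Stomach differed from intestine by 0.28 (0.10 to 0.46, adjusted p = 0.0513), which passed with a filter on dim genes (adjusted p = 0.0389), with arrays centred on their medians (adjusted p = 0.0455) and with a variance trend (adjusted p = 0.0177).

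The call of Ccnd1 held without intestine replicate 1 and ended without any other single array, with an adjusted p of 0.0651 without either stomach array, 0.0727 without intestine replicate 2, 0.128 without Barx1 intestine replicate 1 and 0.0800 without Barx1 intestine replicate 2. The 15 proliferation genes had a mean level of 10.61 and 10.60 in stomach, 10.04 and 10.09 in intestine, and 10.33 and 10.36 on the Barx1 intestine arrays, with 4 of 15 higher and 0 lower in Barx1 intestine than in intestine. So proliferation genes were highest in stomach while Ccnd1 was highest in Barx1 intestine. Macrophage and leukocyte genes moved the other way, with means of 7.04 and 7.92 in Barx1 intestine against 8.84 and 9.84 in the intestine controls, and 6 of 17 lower and 0 higher. Of all genes, 1.86% passed as higher and 2.12% as lower in this comparison. Genes of enteric neurons and glia (4 of 14) and of endothelium (2 of 12) were also lower and 0 higher with BARX1, while 0 of 6 mesothelial genes passed (2 at an unadjusted p under 0.05, against 23.6% of all genes). The 2 endothelial genes were Esam and Pecam1, and Pecam1 lay below the lower quartile on all arrays. Of 23 epithelial genes 1 was lower and 0 higher (median difference -0.63). The arrays did not overlap for 6 of these 23 (26.1%, against 52.4% of all genes). The part of any of these in the Ccnd1 result was not tested.

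The feedback genes that are read most often as signs of beta-catenin activity did not pass in any comparison of the limma fit. Axin2 read 5.38 and 5.39 in stomach, 5.32 and 5.50 in intestine, and 5.47 and 5.35 on the Barx1 intestine arrays. Its difference was -0.023 between stomach and intestine (95% confidence interval -0.23 to 0.18) and 0.0019 between Barx1 intestine and intestine (-0.21 to 0.21). These intervals bound the change in the signal of this probe set. The second probe set of Axin2 gave 0.098 and -0.057, without a call, and read 3.91 to 4.20, below the lower quartile on all arrays. Nkd1, an inhibitor that binds Dishevelled, read 5.29 and 5.54, 5.21 and 5.23, and 5.23 and 5.08 in the same order of groups. Neither gene stood far above the lower quartile. Apcdd1, a membrane inhibitor of Wnt signalling, read 9.45 and 9.66 in stomach, 9.10 and 9.61 in intestine, and 8.92 and 8.93 on the Barx1 intestine arrays, which were the lowest. Its difference from stomach was -0.63 (-1.06 to -0.20, adjusted p = 0.0991) and from intestine -0.43 (-0.86 to -0.0035, adjusted p = 0.210). Without either intestine array the difference of Apcdd1 from stomach passed (adjusted p = 0.0362), and without intestine replicate 1 that from intestine was -0.68 and passed (adjusted p = 0.0497). All 4 probe sets of Apcdd1 pointed the same way in each comparison, without a call.

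**Figure D4:**
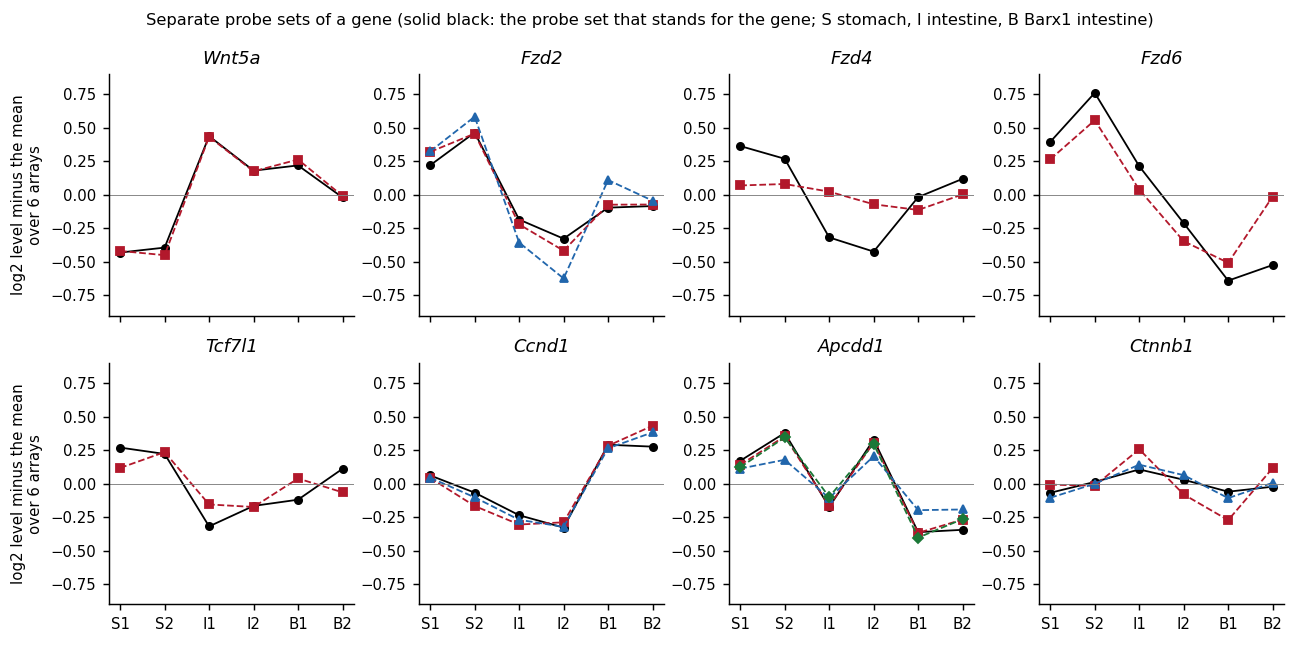
Each probe set of 8 Wnt genes on the 6 arrays, as log2 level minus that probe set's mean over the arrays (vertical axes, log2 units); solid black marks the probe set that stands for the gene. The probe sets of Wnt5a, Ccnd1 and Apcdd1 follow each other closely, and those of Fzd2 share their direction between stomach and intestine but differ in size. The second probe set of Fzd4 is nearly flat, and that of Fzd6 departs from the first on Barx1 intestine replicate 2.

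Across the 18 Wnt genes with several probe sets, all probe sets had the same sign for 13 in stomach minus intestine, 14 in Barx1 intestine minus intestine and 13 in Barx1 intestine minus stomach. All probe sets passed for Fzd2, Tcf7l1 and Wnt5a in the first comparison and for Ccnd1 in the second, and no gene was called in opposite directions.

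Of the other lists of the pathway, that of Wnt secretion and R-spondin input came first by share between stomach and intestine. It had 50%, 10% and 30% called in the 3 comparisons, against 16.9%, 3.98% and 5.20% of all genes. The pathway lists here and below were chosen with earlier results of these data known. Their shares thus describe the lists and are no test of them. Among 10 such genes, 4 were higher and 1 lower in stomach (median difference 0.21), 1 was higher and 0 lower in Barx1 intestine than in intestine (median 0.020), and 1 was higher and 2 lower in Barx1 intestine than in stomach (median -0.12). Rspo2, a secreted potentiator of Wnt signalling, read 6.41 and 6.50 in stomach, 4.78 and 4.70 in intestine, and 5.09 and 5.13 on the Barx1 intestine arrays. The stomach arrays were far above the rest, by 1.71 over intestine (SE 0.07, adjusted p = 0.000560), and the Barx1 intestine pair exceeded the intestine pair by 0.37 (SE 0.07, adjusted p = 0.0461). Rspo2 in intestine was itself near the lower quartile, and below it on replicate 2. Gpc3, a glypican, was higher in stomach than in intestine by 0.46 (adjusted p = 0.0143), and Lgr6, an R-spondin receptor, was lower (-0.40, adjusted p = 0.0294). Between Barx1 intestine and stomach Lgr6 was higher (0.48, adjusted p = 0.0396) and Rspo2 lower (-1.35, adjusted p = 0.00425). Rspo1 passed as higher in stomach than in either other group, but both of those lay below the lower quartile, so its difference is given as a bound, at least 1.06-fold from each; such bounds set the brighter group's mean against the mean lower quartile of the dimmer group's arrays. Lgr5 and Rnf43 lay below the lower quartile on all 6 arrays.

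Among 14 secreted antagonists 2 were higher and 3 lower in stomach than in intestine (median difference 0.018), 0 and 1 in Barx1 intestine against intestine (median 0.00090), and 1 and 0 in Barx1 intestine against stomach (median -0.038). These are 35.7%, 7.14% and 7.14% of the list, against 16.9%, 3.98% and 5.20% of all genes. Dkk2, which blocks LRP co-receptors, read 8.87 and 9.03 in stomach, 10.28 and 10.46 in intestine, and 9.91 and 10.06 on the Barx1 intestine arrays. Dkk2 was lower in stomach than in intestine (-1.42, adjusted p = 0.00261) and higher in Barx1 intestine than in stomach (1.03, adjusted p = 0.0140). Frzb, a soluble Frizzled-like protein that binds Wnt ligands, was at least 1.65-fold higher in stomach than in intestine (adjusted p = 0.00630), where both arrays lay below the lower quartile. Sfrp2, of the same family, was higher by 1.35 (adjusted p = 0.0134), with intestine replicate 2 below the lower quartile. Sostdc1 was at least 3.44-fold lower in stomach than in intestine (adjusted p = 0.0182), with both stomach arrays below the lower quartile. Igfbp4 was lower than in intestine in both stomach (-0.55, adjusted p = 0.0246) and Barx1 intestine (-0.70, adjusted p = 0.0345), comparisons that share the intestine arrays.

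With BARX1 in the intestine, 7 of the 14 antagonists had an unadjusted p under 0.05, against 23.6% of all genes, and Igfbp4 alone passed. Frzb read 5.07 and 5.10 in Barx1 intestine against 4.71 and 4.46 in intestine (at least 1.29-fold, adjusted p = 0.0515). Sfrp2 read 5.21 and 5.62 against 4.85 and 4.48 (difference 0.74, 95% confidence interval 0.23 to 1.26, adjusted p = 0.107). For both genes the groups did not overlap and Barx1 intestine lay between the controls. Sostdc1 read 4.34 and 5.54 against 6.40 and 6.67 (difference -1.60, 95% confidence interval -2.53 to -0.67, adjusted p = 0.0771), with Barx1 intestine replicate 1 below the lower quartile.

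Downstream, of 14 genes of the destruction complex and cytoplasmic relay, 1 was higher and 1 lower in stomach than in intestine (Dvl1, 0.33, and Csnk1e, -0.39), 0 passed in Barx1 intestine against intestine (3 at an unadjusted p under 0.05), and 1 was higher against stomach (Csnk1e, 0.36). Of 13 nuclear partners of beta-catenin 3 were higher in stomach than in intestine, Tle1 (0.56), Bcl9 (0.32) and Bcl9l (0.22), and 0 passed in either of the other comparisons (5 and 4 at an unadjusted p under 0.05). Of 16 genes of planar polarity and the relay without beta-catenin, 4 were higher in stomach than in intestine, Nfatc4 (0.47), Prkca (0.68), Scrib (0.30) and Camk2a, which lay below the lower quartile on all arrays, and again 0 passed in the other comparisons (2 and 3 at an unadjusted p under 0.05). Between stomach and intestine the shares called were 14.3%, 23.1% and 25% for these 3 lists in turn, against 16.9% of all genes. In the other 2 comparisons 3.98% and 5.20% of all genes passed, and 23.6% and 24.2% had an unadjusted p under 0.05.

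A further list held 21 genes counted here as Wnt targets or feedback genes, also chosen with earlier results of these data known. Of these, 5 were higher and 3 lower in stomach than in intestine, and 3 and 2 in Barx1 intestine than in intestine. Against stomach, 0 were higher and 4 lower in Barx1 intestine. These are 38.1%, 23.8% and 19% of the list, against 16.9%, 3.98% and 5.20% of all genes. The calls in each comparison include Prrx1. Prrx1, a homeobox gene of mesenchyme, read 8.68 and 8.82 in stomach, 4.73 and 5.27 in intestine, and 6.22 and 6.01 on the Barx1 intestine arrays, with intestine replicate 1 below the lower quartile. It was higher than in intestine in both stomach (3.76, adjusted p = 0.00110) and Barx1 intestine (1.12, adjusted p = 0.0417), and lower in Barx1 intestine than in stomach (-2.64, adjusted p = 0.0109). Dact1, a Dishevelled-binding protein, was higher in stomach than in intestine by 1.10 (adjusted p = 0.00510) and lower in Barx1 intestine than in stomach (-1.59, adjusted p = 0.0109). The follistatin gene Fst was higher than in intestine in both stomach (1.01) and Barx1 intestine (1.10), and so was Twist1 (0.68, adjusted p = 0.0204, and 1.06, adjusted p = 0.0204). Tbx3 was lower than in intestine in stomach (-1.68) and in Barx1 intestine (-1.18), and the adhesion gene Nrcam was lower in Barx1 intestine than in both intestine (-1.38, adjusted p = 0.0156) and stomach (-1.06, adjusted p = 0.0227), while stomach differed from intestine by -0.32 (adjusted p = 0.178). The comparisons with intestine share its arrays. The median difference of the list was near 0 in each comparison (-0.00090, -0.038 and -0.037).

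**Figure D5:**
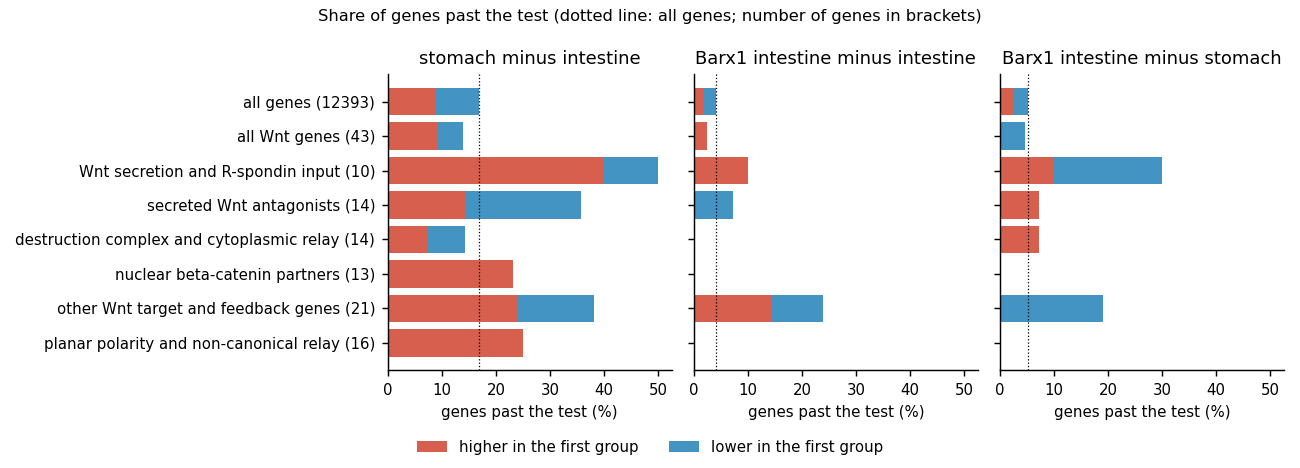
Percentage of genes past the test (horizontal axis) among all genes, the 43 Wnt genes and 6 other lists of the pathway, split by direction, in the 3 comparisons; the dotted line marks all genes (16.9%, 3.98% and 5.20%). The Wnt genes lie just below the line in each panel, and the lists of 10 to 21 genes vary around it, so that a single gene moves their bars by several percent.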

How the data were processed

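The data are 6 Affymetrix 3′ arrays, 2 per group, with 22690 probe sets. The authors deposited log2 expression values that, per the submitters' processing notes, came from RMA (version not given in the sources used here). This method brings arrays to a common distribution, so a shift of most genes alike would be removed. The log2 scale was read from the values (2.48 to 14.7). The number of arrays limits the precision, and p-values measure only the spread between arrays labelled as biological replicates.

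Probe sets that the platform annotation gave 1 gene (20380 without controls; 691 named several genes and 1606 none) were reduced to the probe set with the highest mean over the 6 arrays for each of 12393 genes; 20351 matched the reference gene table and 0 symbols changed. One limma 3.58.1 fit (lmFit, eBayes, R 4.3.3) of 3 group means on all arrays had 3 residual and 2.58 prior degrees of freedom. P-values are two-sided and Benjamini-Hochberg adjusted over all genes, and every adjusted p for a gene comes from this fit unless another setting or the probe sets are named. Each probe set was also fitted by itself, an addition made after the data were seen. The fit was tested on simulated data. SE is that of the moderated fit.

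The Wnt genes, the pathway lists and the marker lists were chosen with earlier results of these data known. The naming rule gave array values for Wnt genes past the test in any comparison or differing by 1 or more, and up to 4 called genes per list and comparison; array values of other genes follow their role. Promoter regions came from RefSeq tables (Python 3.11.15, pandas 2.3.3; figures with matplotlib 3.10.9). Same-numbered replicates were not treated as pairs, since the labels do not say what a replicate number shares. Over all genes their deviations correlated at -0.22 (stomach with intestine), -0.062 (stomach with Barx1 intestine) and 0.20 (intestine with Barx1 intestine). These values do not settle whether the replicates were paired. The results were recomputed without dim genes (above the lower quartile on fewer than 2 arrays), with arrays centred on their medians or quantile normalised again, with each gene's probe sets averaged, with a trended variance, on 2 groups only, with a block for the replicate number, without each array in turn and at a threshold of 0.10. The comparisons share arrays and are not independent.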

Additional observations from a re-analysis of the deposited data

How the results depend on the processing

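None of the 9 calls of Wnt genes changed direction under any of the 14 alternatives that each was run under, but each ended in at least 2 of the 6 fits that left out 1 array; where such a fit leaves 1 array in a group, that array is assumed to vary like the others. For stomach against intestine the number of Wnt genes called was 6, with 0 to 6 when 1 array was left out and 10 at a threshold of 0.10. For Barx1 intestine against intestine it was 1, with 0 to 2 when 1 array was left out, 0 in a fit of the 2 groups, 2 with the dim filter, with median centring, with the second quantile normalisation or at the threshold of 0.10, and 3 with the variance trend. For Barx1 intestine against stomach it was 2, with 0 to 4 when 1 array was left out, 1 with the mean of all probe sets or the replicate block, 4 in a fit of the 2 groups, 6 with the variance trend and 7 at the threshold of 0.10; the genes gained with the variance trend were Wnt5a (adjusted p = 0.0308), Ccnd1 (adjusted p = 0.0311), Fzd2 (adjusted p = 0.0344) and Fzd7 (adjusted p = 0.0179). Over all genes, leaving out 1 array gave 281 to 1692 calls for stomach against intestine (2100 in full, 3310 at the threshold of 0.10), 50 to 466 for Barx1 intestine against intestine (493 in full, 1037 with the variance trend, 50 in a fit of the 2 groups, 1316 at the threshold of 0.10) and 0 to 727 for Barx1 intestine against stomach (644 in full, 1189 with the variance trend, 1516 at the threshold of 0.10). The lowest counts over all genes came without stomach replicate 2 in the first and last comparison and without either stomach array in the second. In the fit of the 2 groups, 0 of the 43 Wnt genes were called between Barx1 intestine and intestine. There 7 of the 43 had an unadjusted p under 0.05, beside 2393 of all 12393 genes. Counts of 0 in fits without 1 array are no evidence of no difference. For a comparison of 2 groups, leaving out either array of the third group gives the same fit as that of the 2 groups. The 1 array left in the third group adds no spread. The losses of Ccnd1 without either stomach array, and of Porcn without either Barx1 intestine array, are thus 1 result each and not 2. The cause of the other shifts was not tested, beyond the fewer arrays in each such fit.

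The replicate block gave 5, 1 and 1 Wnt genes, losing Porcn between stomach and intestine (adjusted p = 0.0722) and Fzd6 between Barx1 intestine and stomach (adjusted p = 0.0661), and 1508, 267 and 337 over all genes; it changed no other call of a Wnt gene. With the numbers of the stomach arrays crossed, an alternative chosen after seeing the data, the block gave 6, 1 and 2 Wnt genes and 1879, 570 and 383 over all genes. Levels near the lower quartile, which included 5 ligands, Ror1 and Lef1 on all arrays, limit what can be said of those genes.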
